A study of Mus musculus with 4 samples.

Results

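The BCL2 family was followed through 10 genes in RNA libraries of E18.5 mouse oocytes, taken by symbol from the 55401 genes of the count files. Of these, 4 encode proteins that protect cells (Bcl2, Bcl2l1, Bcl2l2 and Mcl1) and 6 encode proteins that promote death (Bax, Bak1, Bbc3, Pmaip1, Bid and Bcl2l11). The genes were set by name, with earlier results of these data known. The 4 libraries came from female germ cells sorted from fetal ovaries by the surface antigen SSEA-1, with SMART-Seq2 used to amplify their RNA. In 2 libraries the mothers had received a normal diet (ND) for 4 months, and in the other 2 a high-fat diet (HFD) for 4 months. All mothers were ICR females mated with males on the normal diet, and each library pooled oocytes of several fetuses, so that a library stands for a pool and not for a single animal. The labels name the cells primordial germ cells, which at this age are oocytes in meiotic prophase I.

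Proteins of the BCL2 family decide whether the outer membrane of the mitochondrion stays closed. BAX and BAK1 form pores in it, BCL2 and its relatives hold them back, and the BH3-only proteins relieve this restraint or activate the pore formers directly. Cytochrome c that leaves through the pore assembles with APAF1 and caspase-9 and starts the caspase cascade. A large share of mouse oocytes is lost around birth, and BCL2 family members are known to take part in that loss.

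The family is held together by the BH3 motif, a short helix through which its members bind each other. The stretch of 9 codons that encodes it is shown for 4 genes on which the results below turn, with the 2 codons of its glycine and aspartate in capitals, written 5′ to 3′ on the coding strand. Bcl2 is the founding pro-survival gene, and Mcl1, Bax and Bid had the highest mean levels per kilobase of the pro-survival, pore-forming and BH3-only genes. The sequences are from the transcripts of GENCODE M21 on GRCm38, and each lies within 1 coding exon, at chr1:106712575-106712601 on the minus strand for Bcl2, chr3:95659436-95659462 on the plus strand for Mcl1, chr7:45465997-45466023 on the minus strand for Bax and chr6:120897289-120897315 on the minus strand for Bid.
Bcl2: ctccgccgggctGGGGATgacttctct
Mcl1: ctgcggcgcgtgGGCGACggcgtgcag
Bax: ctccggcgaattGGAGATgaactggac
Bid: ctcgcccaaataGGCGATgagatggac
Bax and Bid shared 19 of 27 bases here, Bcl2 and Bax 16, and Bcl2 and Mcl1 14. A core of leucine or methionine, glycine or alanine, and aspartate with fixed hydrophobic positions was found once in 9 of the members and at 2 places in Pmaip1. The same core was present in 4.1% of 21584 protein-coding genes, so that a match alone does not mark a family member.

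The libraries held between 5723605 and 8223255 counted reads, and 3 counts corresponded to 0.365 to 0.524 CPM (a gene's counts divided by the library's counted reads and scaled to 1000000). As a measure of background, counts per kilobase of exon were taken over 1093 olfactory receptor genes, which are not known to act in oocytes, and the 99th percentile of each library was used as its limit, between 7.36 and 12.5 counts per kilobase. A gene also had to exceed 3 counts. Reads lay on 80.0% to 96.1% of the olfactory receptor genes. Of 15 germ cell markers, 11 to 14 exceeded the limit in each library, and their summed level was 2353 and 5249 CPM in the ND libraries and 6403 and 5624 CPM in the HFD libraries, in the order of the replicate numbers. Of the 15, 6 were higher and 1 was lower in HFD at an unadjusted p under 0.05 in edgeR, against 4.82% and 6.41% of all genes. After adjustment over all genes 0 of them were called. The part of these markers in the levels of the members was not tested. The genes behind the sum changed from library to library. Dazl, an RNA-binding protein gene of germ cells, was at 439 and 858 times the limit in ND and at 104 and 1.03 times in HFD, and Sohlh1, a transcription factor gene of early oocytes, at 1.19 and 1.64 times in ND and at 2.003 and 683 times in HFD.

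Reads also lay on marker genes of other cell types, and their sums differed between libraries. Whether these reads came from such cells was not tested. Stromal markers, 9 genes led by Col1a1 and Col3a1, summed to 2843 and 69.0 CPM in ND and to 2222 and 7700 CPM in HFD, with 3 to 6 of them past background. Pregranulosa markers, 10 genes of the somatic cells that enclose oocytes, summed to 29.3 and 407 CPM in ND and to 19.7 and 1159 CPM in HFD. In HFD replicate 2 this sum was nearly all Amhr2 and in ND replicate 2 nearly all Fst, while Foxl2, their defining transcription factor gene, had 14 to 34 counts per library. Blood markers, 6 genes, summed to 1973 CPM in ND replicate 1 and to 1.41 to 10.8 CPM in the others, where the leading genes Hbb-bs and Hba-a1 had at most 3 counts. Endothelial markers, 6 genes, summed to 701 CPM in HFD replicate 1, of which Kdr alone gave 681 CPM, and to 23.7 to 70.9 CPM in the others, where Pecam1 was highest with 53.9 CPM in ND replicate 2. Cdh5, Tek, Emcn and Tie1 were below background in HFD replicate 1. Macrophage markers, 6 genes led by Cd68 and Adgre1 per kilobase, summed to 4.35 to 28.0 CPM. Here and below, paired values are those of replicate 1 and replicate 2. In pooled cells, fewer cells of a type and less RNA per cell cannot be told apart.

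Most BCL2 family members lay below the background limit in most libraries. Of the 10 members, 4 exceeded the limit in ND replicate 1, 2 in ND replicate 2, 0 in HFD replicate 1 and 2 in HFD replicate 2, where 24.8%, 22.2%, 13.5% and 15.3% of all protein-coding genes did so. Bcl2, Bcl2l2, Bak1 and Pmaip1 exceeded it in no library, 5 members in exactly 1 library, and Mcl1 in 3 libraries. Among protein-coding genes these shares were 57.2% in no library, 22.2% in exactly 1 and 20.5% in 2 or more. Of the 40 values, 10 genes in 4 libraries, 34 lay below 10 CPM.

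**Figure D1:**
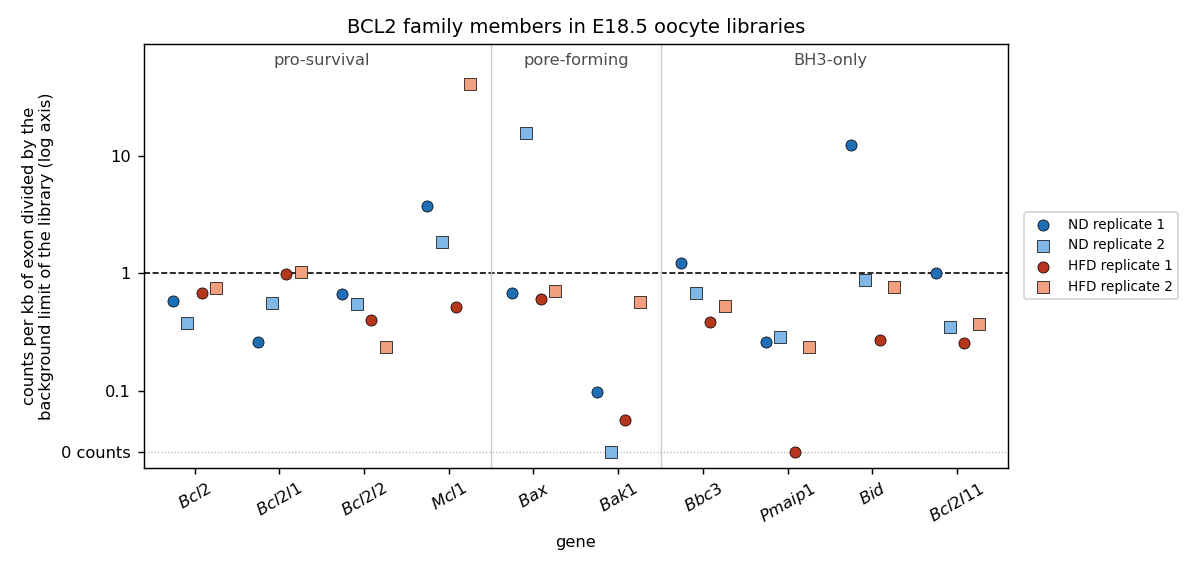
Level of the 10 BCL2 family members in the 4 libraries, as counts per kilobase of exon divided by the background limit of that library (log axis, dashed line at the limit, values with 0 counts drawn at the bottom line). Mcl1 in HFD replicate 2, Bax in ND replicate 2 and Bid in ND replicate 1 lie at 40.7, 15.6 and 12.5 times the limit, and most other points lie below it.

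Mcl1 encodes a short-lived pro-survival protein that binds BAK1 and BIM, and had the highest mean level per kilobase of the members. It lies on chromosome 3 from 95658788 to 95663176 on the plus strand. Its counts were 108 and 57 under ND, and 13 and 1736 under HFD. HFD replicate 2 stood far above the other libraries, with 303 CPM (95% exact Clopper-Pearson interval 289 to 318), whereas HFD replicate 1 was the lowest of all with 2.01 CPM (1.07 to 3.44), so that the HFD libraries enclosed both ND libraries. Intervals of this kind cover counting error only, as reads and not molecules were counted. HFD replicate 2 was also the library with the highest stromal and pregranulosa marker sums, whose part in the Mcl1 level was not tested. The mean under ND was 10.2 ± 4.13 CPM and that under HFD 153 ± 213 CPM (SD, n = 2 libraries each).

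Bcl2, which restrains BAX and the BH3-only proteins at the mitochondrion, lies on chromosome 1 from 106538178 to 106714274 with counts of 45 and 31 under ND and of 46 and 85 under HFD. In CPM these were 5.47 and 3.97 against 7.12 and 14.9, so that both HFD values were above both ND values, yet all 4 stayed between 0.376 and 0.743 of the background limit. Bcl2l1, the gene of BCL-XL, a pro-survival protein that many cells need, was counted 10 and 23 times under ND and 33 and 59 times under HFD. Its CPM were 1.22 and 2.94 in ND and 5.11 and 10.3 in HFD, again without overlap. HFD replicate 2 was just past the background limit at 1.03 times and HFD replicate 1 just short of it at 0.978 times. Bcl2l2, the gene of BCL-W, lay in the opposite order, with counts of 25 and 22 under ND and 13 in each HFD library. Its CPM were 3.04 and 2.82 in ND and 2.01 and 2.27 in HFD, all 4 below background.

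The pore formers differed in where they were found. Bax, on chromosome 7 from 45461697 to 45466898 on the minus strand, was counted 9 and 221 times under ND and 7 and 14 times under HFD. Only ND replicate 2 exceeded background, with 28.3 CPM (24.7 to 32.3), and ND replicate 1 with 1.09 CPM was at the level of the HFD libraries, which had 1.08 and 2.45 CPM. ND replicate 2 also had the Fst reads given above, and their part in the Bax level was not tested. Bak1, which can take the place of Bax in many cells, was counted 2 and 0 times under ND and 1 and 17 times under HFD, all under the limit. The 0 in ND replicate 2 allows up to 0.384 CPM. Of the exon bases of Bak1, 25.5% are shared with Ggnbp1 on the opposite strand. Reads in the shared part could not be assigned to one gene. The strand setting of the counting is also not given in the sources used here.

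Among the BH3-only genes, Bid was the most abundant. Its product is cut by caspase-8 and links death receptors to the mitochondrion. It lies on chromosome 6 from 120891930 to 120916853 on the minus strand, with counts of 376 and 28 under ND and of 7 and 34 under HFD. ND replicate 1 was far above the rest at 45.7 CPM (41.2 to 50.6), and ND replicate 2 with 3.58 CPM lay between the HFD libraries, which had 1.08 and 5.94 CPM. Of the exon bases of Bid, 17.7% (628 of 3550) are shared with Bcl2l13, itself a family member, on the opposite strand. Bcl2l13 was high in the same library, with 1678 counts there against 15 in the other ND library and 35 and 59 under HFD. The same library held the blood markers. The part of the shared bases and of blood cells in the Bid counts was not tested.

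The remaining BH3-only genes stayed near or under background. Bcl2l11, the gene of BIM, which acts after loss of growth factors, was counted 69 and 25 times under ND and 15 and 37 times under HFD. ND replicate 1 was at 1.01 times the background limit, and the ND values enclosed the higher of the HFD values. Bbc3, the gene of PUMA, a target of p53 and TAp63 after DNA damage, was counted 22 and 13 times under ND and 6 and 14 times under HFD, with 1.22 times the limit in ND replicate 1 and less elsewhere. Pmaip1, the gene of NOXA, which binds MCL1, was counted 6 and 7 times under ND and 0 and 8 times under HFD. The 0 in HFD replicate 1 allows up to 0.465 CPM. The groups overlapped for each of these 3 genes.

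Replicates of 1 diet lay far apart for the abundant members. In Mcl1, Bax, Bak1 and Bid the highest library stood at least 5-fold over the next, with 23.1, 11.6, 12.2 and 7.70-fold, where for Bak1 this rests on 17 counts against 2. Among all genes tested, 14.5% had such a gap, and 3 of the 8 tested members did. Between the ND replicates, the median absolute log2 difference (1 count added) was 1.02 for the 8 tested members and 0.847 for all genes tested. Between the HFD replicates it was 1.18 and 1.496.

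Of the members, 8 passed edgeR's filter on low counts, while Bak1 and Pmaip1 did not. None of the 8 was called between diets at an adjusted p under 0.05 and a fold change over 1.5 in edgeR's quasi-likelihood test, as was the case for all 19335 genes tested (0%). At an unadjusted p under 0.05 there was 1 member, Bcl2l1, against 11.2% of all genes, 4.82% higher and 6.41% lower in HFD. Bcl2l1 was fitted at a log2 fold change of 1.71 with a standard error of 0.61 (unadjusted p = 0.0311, adjusted p = 0.406, both from edgeR). Leaving out single libraries moved it over a range of 1.11 to 2.51, and the unadjusted p of edgeR rose to 0.0719, 0.158 and 0.115 without ND replicate 1, HFD replicate 1 and HFD replicate 2, and was 0.0103 without ND replicate 2. Bcl2 was fitted at 1.07 ± 0.49 (log2 fold change ± standard error, as below; adjusted p = 0.406 in edgeR) and Bcl2l2 at -0.44 ± 0.46 (adjusted p = 0.752 in edgeR). In 2 of the 8 tested members, Bcl2 and Bcl2l1, each HFD value was above each ND value, and in 1, Bcl2l2, each was below, where 13.9% and 13.4% of all genes did so. Over the 8 members, 3 fitted log2 fold changes were above 0 and 5 below, with a median of -0.50 against 0.03 for all genes tested.

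The members with the largest fitted values each rested on a single library. Mcl1 was fitted at 3.32 ± 2.01 (adjusted p = 0.512 in edgeR), which turned to -1.82 without HFD replicate 2. Bax was fitted at -3.27 ± 1.47 (adjusted p = 0.406 in edgeR), which turned to 0.51 without ND replicate 2. Bid was fitted at -3.13 ± 1.36 (adjusted p = 0.406 in edgeR), which became -0.55 without ND replicate 1. Bcl2l11 was fitted at -0.60 ± 0.58, which turned to 0.09 without ND replicate 1. Bbc3 was fitted at -0.56 ± 0.46, and leaving out single libraries gave -0.88 to -0.32. With DESeq2 on all genes, the tool named in the study's methods, 0 of the 10 members were called, 4 of them had an adjusted p, and 3 (Mcl1, Bax and Bid) had an unadjusted p under 0.05, whereas 40.3% of the 6251 genes with an adjusted p were called. With DESeq2 on the genes that passed the filter, Bid was called (adjusted p = 0.019), 1 of the 4 members with an adjusted p, where 34.8% of the 6590 genes with an adjusted p were called. Bid shares exon bases with Bcl2l13 as given above.

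**Figure D2:**
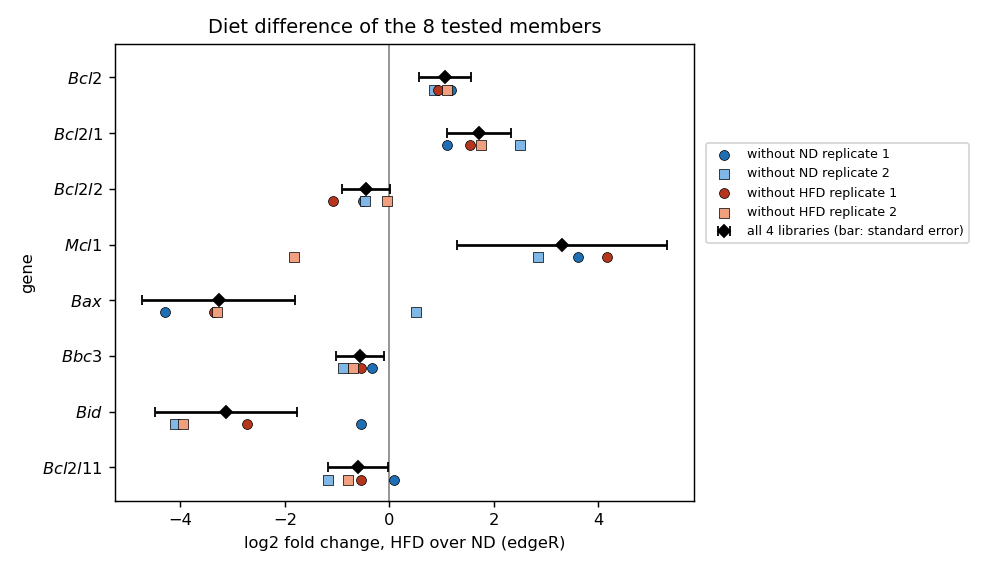
Log2 fold change of HFD over ND from edgeR for the 8 tested members, with all 4 libraries (black diamonds, bars for the standard error) and with single libraries left out (coloured points). The points of Mcl1, Bax and Bcl2l11 cross 0 when 1 library is left out, and that of Bid moves from -3.13 to -0.55.

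To set pro-death against pro-survival members within each library, counts per kilobase were summed over the 6 and the 4 genes, a ratio that does not depend on library scaling. On the log2 scale the ratio of pro-death to pro-survival members was 1.59 and 2.41 in ND replicates 1 and 2, and -0.72 and -3.75 in HFD replicates 1 and 2. The pro-death sum was thus the larger in both ND libraries and the pro-survival sum in both HFD libraries, and the groups did not overlap. With 2 libraries against 2, the smallest p that a two-sided exact permutation test allows is 0.333, so this separation alone does not set the diets apart. The genes behind the ratio differed from library to library. Within ND, Bid gave 77.7% of all pro-death counts of replicate 1 but 9.52% of those of replicate 2, where Bax gave 75.2%. Within HFD, Mcl1 gave 12.4% of all pro-survival counts of replicate 1 and 91.7% of those of replicate 2. In HFD replicate 1, the 105 pro-survival and 36 pro-death counts were below the 159 and 150 counts that genes of these lengths would have at the background limit of that library. The pro-survival sum of ND replicate 2 (133 counts against 194.5) and the pro-death sum of HFD replicate 2 (124 against 255) were also below it. That of the pro-survival members in ND replicate 1 was barely above it (188 against 183.6). Without Mcl1 and Bid the ratio was 1.12 and 3.51 in ND and -0.66 and 0.26 in HFD. No test was made on this sum, whose members were chosen by name with earlier results of these data known.

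**Figure D3:**
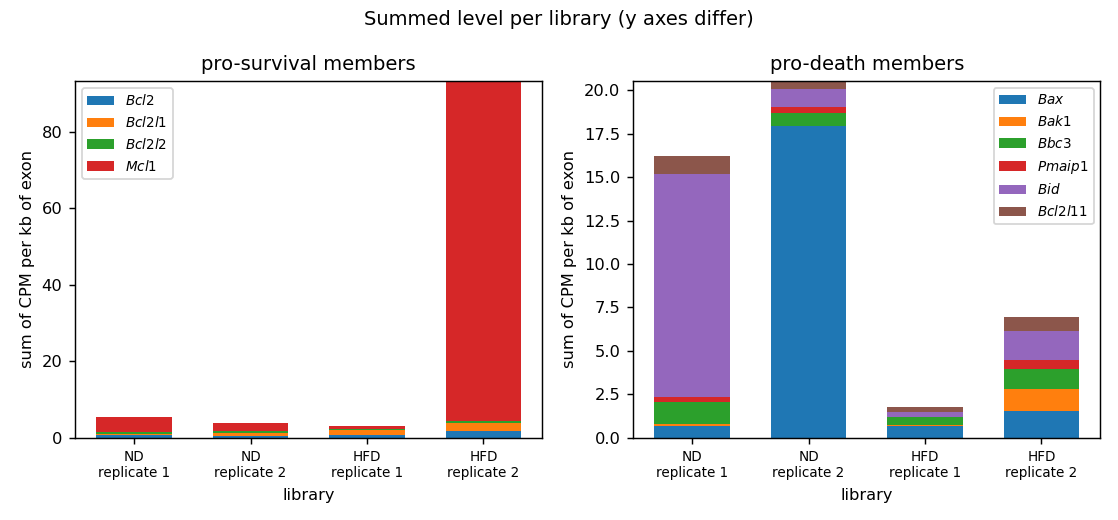
Summed level of the pro-survival (left) and pro-death (right) members in each library, in CPM per kilobase of exon, stacked by gene, with different y axes. Mcl1 fills most of the bar of HFD replicate 2, Bid that of ND replicate 1 and Bax that of ND replicate 2.

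For the single pair of Bax over Bcl2, often used as a measure of readiness for apoptosis, the log2 ratio of counts per kilobase was 0.22 and 5.37 under ND, and -0.18 and -0.06 under HFD. The mean under ND was 2.79 ± 3.65 and that under HFD -0.12 ± 0.08 (SD, n = 2 libraries each). The difference of -2.92 gave p = 0.333 in a two-sided exact permutation test, the smallest p that 2 libraries against 2 allow. Without ND replicate 2 the difference was -0.34.

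Of the 15 other family genes listed, 10 were tested and 0 had an unadjusted p under 0.05 in edgeR, with a median log2 fold change of -0.72 where that of all genes was 0.03. Bcl2l10, the gene of a BCL2 relative that is abundant in oocytes, differed from the 10 members in that it exceeded background in all 4 libraries, as did 3.38% of protein-coding genes. It was counted 129 and 570 times under ND and 38 and 151 times under HFD, or 12.5, 52.0, 4.23 and 9.91 times the limit. The diets overlapped, and edgeR put it at -1.83 ± 1.18 (adjusted p = 0.544). DESeq2 on all genes called 1 of the 3 listed family genes with an adjusted p, against 40.3% of all genes with one. This was Bcl2l13 (adjusted p = 0.0439), whose counts are given beside Bid. Bnip3l, a mitophagy receptor related to the family, had the highest level per kilobase of the list, counted 7916 and 64 times under ND and 2691 and 15 times under HFD. The 3 listed Bcl2a1 copies, which are near-identical, had at most 12 counts in any library, where Bcl2a1d in HFD replicate 2 was just past background.

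Downstream of the pore, both HFD values of the cytochrome c gene Cycs lay below both ND values, as in 13.4% of all genes tested. It was counted 1088 and 2278 times under ND and 17 and 14 times under HFD, with both ND values above background and both HFD values below. edgeR put it at -6.34 ± 1.68 (unadjusted p = 0.0099, adjusted p = 0.406), and leaving out single libraries gave -7.17 to -5.60. DESeq2 on all genes called Cycs (adjusted p = 1.21e-05). Of the 9 genes of mitochondrial release and the apoptosome, all tested, 0 were higher and 2 were lower at an unadjusted p under 0.05 in edgeR (4.82% and 6.41% of all genes), the other being Vdac3, an outer membrane channel. DESeq2 on all genes called 3 of the 5 with an adjusted p, Cycs, Vdac3 (8.32e-05) and Endog (0.000924), where it called 40.3% of all genes with an adjusted p. Vdac3 was counted 8204 and 50 times under ND and 8 and 31 times under HFD, and its fit of -7.50 fell in size to -1.41 without ND replicate 1. Vdac2, a channel that binds BAK1, had the highest level per kilobase of this list and exceeded background in all 4 libraries, with counts of 150 and 9289 under ND and of 2057 and 1621 under HFD. Endog, a mitochondrial nuclease, was counted 9 and 24 times under ND and 2286 and 6 times under HFD, so that its fit of 6.86 turned to -1.72 without HFD replicate 1. Apaf1, the scaffold of the apoptosome, was below background in all 4 libraries, with 28 to 50 counts. The median over these 9 genes was -0.71.

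Of 6 caspases, 1 was higher and 3 were lower at an unadjusted p under 0.05 in edgeR, against 4.82% and 6.41% of all genes, and 0 were called after adjustment over all genes in edgeR. DESeq2 on all genes called 1 of the 3 with an adjusted p, against 40.3% of all genes with one. This was Casp6 (adjusted p = 0.00363). The median of the caspases in edgeR was -1.28. The initiator Casp9 was counted 211 and 42 times under ND and 18 and 17 times under HFD, and its fit of -2.37 ± 0.94 was -0.99 without ND replicate 1. The executioner Casp6 was counted 1188 and 34 times under ND and 14 and 12 times under HFD, and its fit of -5.02 was -1.09 without the same library. Casp8, which cuts BID, and Casp2, which acts in the DNA damage response, were fitted at -1.37 and 1.24, with all their values below background. The 6 caspase inhibitors had 0 genes at an unadjusted p under 0.05 in edgeR and a median of 1.68. The most abundant per kilobase was Birc6, counted 4692 and 1103 times under ND and 5342 and 116 times under HFD, followed by Birc5 with counts of 26 and 80 under ND and of 353 and 58 under HFD.

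Of 9 upstream regulators, with a median of 0.30, 1 was higher and 0 were lower at an unadjusted p under 0.05 in edgeR, against 4.82% and 6.41% of all genes. This was Mapk8, the gene of the kinase JNK1 that phosphorylates BH3-only proteins, counted 49 and 51 times under ND and 1160 and 6626 times under HFD. edgeR put it at 6.33 ± 1.94 (adjusted p = 0.406), and leaving out single libraries gave 5.34 to 6.80. DESeq2 on all genes also called Mapk8 (adjusted p = 1.21e-05). It was 1 of 3 upstream regulators with an adjusted p, where 40.3% of all genes with one were called. Chek2, a kinase of the oocyte DNA damage checkpoint, and Foxo3, which keeps primordial follicles dormant, had the highest levels per kilobase of this list. Chek2 was counted 29 and 18063 times under ND and 9 and 1656 times under HFD, and Foxo3 934 and 71 times under ND and 33 and 8405 times under HFD, so that the diets overlapped for both. Trp63, whose TAp63 product guards the oocyte genome and drives Bbc3 and Pmaip1, was below background in all 4 libraries with 15 to 63 counts. Huwe1, a ubiquitin ligase that targets MCL1, was counted 123 and 5552 times under ND and 2980 and 29798 times under HFD. Usp9x, which removes ubiquitin from MCL1, was counted 2951 and 150 times under ND and 228 and 52 times under HFD. None of the 3 genes of MCL1 turnover, with a median of 2.43, had an unadjusted p under 0.05 in edgeR. Of 5 death receptor genes, with a median of 1.06, 1 was higher and 0 were lower at an unadjusted p under 0.05 in edgeR (4.82% and 6.41% of all genes). This was the receptor Fas, counted 5 and 2 times under ND and 11 and 33 times under HFD, where HFD replicate 2 alone exceeded background. Tnfrsf1a, the TNF receptor gene with the highest level per kilobase of this list, was counted 30 and 5 times under ND and 8 and 99 times under HFD. None of the 5 had an adjusted p in DESeq2 on all genes.

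**Figure D4:**
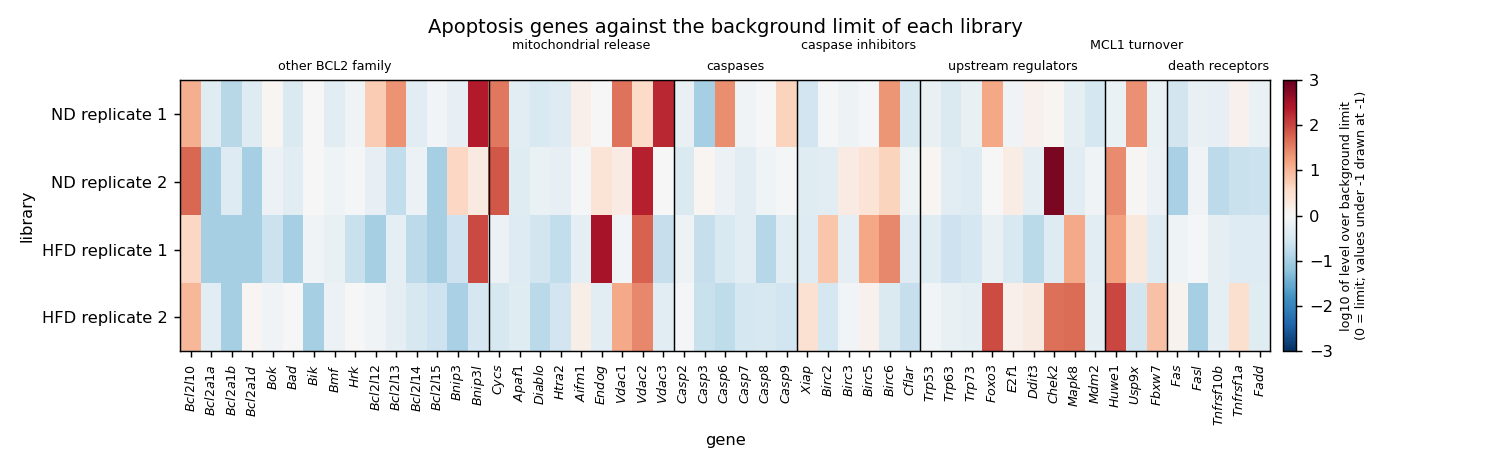
Other apoptosis genes by library, coloured by the log10 of counts per kilobase over the background limit of the library (0 at the limit, values below -1 drawn at -1). Red marks levels above the limit and blue levels below it. Many genes are red in 1 or 2 libraries, whereas Bcl2l10 and Vdac2 are red in all 4.

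The genes whose pattern over the 4 libraries was nearest to that of Mcl1, by Euclidean distance of log2 normalized CPM, were Bahcc1 (0.597), C2cd5 (1.01) and Rnf17 (1.09). Bahcc1 was counted 85 and 66 times under ND and 17 and 1439 times under HFD. It was the only gene within a distance of 1, over 4 libraries only.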

How the data were processed

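RNA of sorted E18.5 oocytes was measured in 2 ND and 2 HFD libraries. The authors trimmed reads with Trim Galore, with HISAT2 placed them on mm10, and obtained gene counts by featureCounts. The deposited values are raw counts, used as deposited. The annotation release, the strand setting and the handling of reads with several alignments are not given in the sources used here. GENCODE M21 on GRCm38 (mm10) gave gene names, positions and union exon lengths, and covered 55141 identifiers but not the other 260. Gm20521 and Gm45808, models that overlap Bcl2l2 and Bax on the same strand, had 0 counts in all libraries, and the antisense gene D630008O14Rik, which shares 6.09% of the exon bases of Bcl2, had 7 to 11.

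CPM are counts over the total of all counted genes. Diets were compared with edgeR 4.0.16 (quasi-likelihood, legacy FALSE, robust FALSE, TMM, filterByExpr) in R 4.3.3, with Benjamini-Hochberg adjustment over all genes tested. A standard error is the fold change's size on the log2 scale divided by the root of its F statistic. Separate cultures or animals behind the replicates are not identified beyond pools of fetuses, so p-values measure the spread between these pools. TMM factors were 1.02 and 0.94 for ND and 0.692 and 1.51 for HFD. Alternatives used limma 3.58.1 and DESeq2 1.42.0. The fitting functions were run on simulated data with the same dispersion for all genes. This checks the code and not the error rates of the tests in these libraries. The members, gene lists, background limit and tests were chosen with earlier results of these data known. Named genes are all members, and of each pathway list the genes at an unadjusted p under 0.05 and the 2 with the highest mean level per kilobase. The 3 genes nearest to the leading member, genes sharing exon bases with a member, and the 2 leading markers of a list were also named. Apaf1, Trp63, the Bcl2a1 copies, Foxl2, Cdh5, Tek, Emcn and Tie1 were named after their values were seen.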

Additional observations from a re-analysis of the deposited data

How the results depend on the processing

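The count of genes called between diets was 0 in edgeR and stayed 0 with other normalizations and filters, without a fold change minimum, with limma-voom, and for every single library left out (0 to 0). It was 34 with edgeR's legacy fit, 2518 with DESeq2 on all genes and 2291 with DESeq2 on the filtered genes. Genes at an unadjusted p under 0.05 numbered 2171 of 19335 in edgeR and 750 of 19335 in limma-voom. Taking library size only moved the median log2 fold change of all genes from 0.03 to 0.21.

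Members at an unadjusted p under 0.05 are given with the share of all genes in the same fit. They numbered 1 of 8 in edgeR (11.2% of all genes), 3 of 8 with its legacy fit (Bcl2l1, Bid and Bax, 6.23%), 3 of 10 with DESeq2 on all genes (Mcl1, Bid and Bax, 6.49%) and 2 of 8 with DESeq2 on the filtered genes (Bcl2l1 and Bid, 18.7%). With single libraries left out they numbered 0 to 4, the highest without ND replicate 2 (4 of 9, 11.1%) and the lowest without HFD replicate 2 (0 of 8, 15.4%). The cause was not tested. The deviations of same-numbered libraries had a correlation of 0.0112 over genes, so no pairing by replicate number was seen. With 2 libraries per diet this cannot tell whether same-numbered libraries were handled together. With the replicate block edgeR called 0 genes and gave 1 member (7.66% of all genes), and DESeq2 called 1054 genes and gave 0 members (4.04%).

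Of 109 fold changes of the 8 tested members under 14 alternatives, 106 kept their sign, and the other 3 were each reached by leaving out 1 library, with ranges of -1.82 to 4.18 for Mcl1, -4.29 to 0.51 for Bax and -1.17 to 0.0937 for Bcl2l11. Member values above background numbered 8, 13 with the 95th percentile as the limit and 6 at over 10 CPM. The HFD minus ND difference of the log2 ratio of pro-death to pro-survival members was -4.24, -2.52 without Mcl1 and Bid, and -5.75 to -2.72 with each library left out. At these depths, levels under about 0.5 CPM could not be told from 0 by counting alone. The background limit, 7.36 to 12.5 counts per kilobase, lay above this level for every member. Member values above 0.5 CPM but below that limit could not be told from background.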
